A study of Mus musculus with 4 samples.

Results

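Axon guidance genes of the ephrin, Slit and netrin families were compared between visceral and parietal mesothelium of the mouse. The list held 40 genes, the ephrins and Eph receptors, the Slits and Robos, and the netrins with their receptors. A gene was measured where a probe of the array carried its symbol and no other, and the brightest such probe was taken, which left 38 of the 40 among 19938 genes of the series. Ephb2 had no such probe and the probe of Ntng2 carries a second gene, so these 2 are not analysed here. The series comprised 4 Affymetrix Mouse Gene 1.0 ST arrays, 2 of visceral mesothelium isolated from the omentum and 2 of parietal mesothelium teased off the skeletal muscle of the body wall. All tissue came from untreated adult mice of the genotype Wt1-cre;Rosa26ReYFP on a c57bl/6 background, in which Cre under the control of Wt1 switches on a yellow fluorescent reporter, so both groups carry the same alleles. RNA was taken from the native tissue with no sorting step described. The study states that, judged by the reporter, nearly all of the input came from mesothelial cells. Arrays of 1 tissue are labelled as biological replicates, but the animals behind them are not named. A p-value thus rests on how far 4 arrays scatter, in limma for all genes as well as for the gene itself. This scatter may be technical, and the number of arrays limits the precision.

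Eph receptors are receptor tyrosine kinases that bind ephrins on neighbouring cells. The ephrin-A ligands are held to the membrane by a lipid anchor and mostly bind EphA receptors, and the ephrin-B ligands span the membrane and mostly bind EphB receptors, with signals passing into both cells. Slits are secreted proteins that repel cells through Robo receptors, and netrins are secreted proteins related to laminin that attract through Dcc and neogenin (Neo1) and repel through the Unc5 receptors. All 3 systems guide growing axons and also act on the sorting, adhesion and migration of epithelial and vascular cells. Adhesion, migration and invasion were among the behaviors in which the study compared the mesothelia.

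The labelled tissue was checked against marker genes. Of 15 markers of mesothelium, Upk3b lay at log2 signals of 13.59 to 13.84 and Wt1 at 11.42 to 12.39 on the arrays, and only Calb2 lay under the median signal of all genes, 7.73. Summed over these markers on the linear scale, the signal ran from 54830 to 56808 in visceral and from 88637 to 91600 in parietal mesothelium, with 9 markers called higher in parietal and 1, Wt1, in visceral mesothelium. Other cell types moved with the tissue. All 14 skeletal muscle markers were higher in parietal mesothelium, where their summed signal was 66759 to 83977 against 1711 to 1772, and all 12 macrophage markers were higher in visceral mesothelium, at 23008 to 24117 against 5863 to 6650. Of 12 markers of nerve and Schwann cells none was called. Of these, 4 had an unadjusted p under 0.05 from limma and 2 from the methods' t-test, the 2-group form of the study's ANOVA. Their sums were 3010 to 3584 in visceral and 2781 to 3310 in parietal mesothelium. The brightest, Stmn2, differed by 0.70 (log2, visceral minus parietal). Mbp, Sox10 and Cdh19 differed by -0.39, -0.20 and -0.82, and the median over the 12 was -0.06. Of 12 endothelial markers 2 were higher in parietal mesothelium, with sums of 3732 to 3992 against 4866 to 5106. The median difference over these 12 was 0.005, with a range from -0.69 to 0.26. Smooth muscle and pericyte markers split, 4 of 10 being higher in visceral mesothelium and 1 lower, with sums of 6752 to 9253 against 4553 to 4752. Fibroblast markers split as well, 5 of 10 being higher in parietal mesothelium and 1 lower, with visceral sums of 52020 to 52523 against parietal sums of 54905 to 62759. Of 7 satellite cell markers none was called by limma, although 3 had an unadjusted p under 0.05 from limma and 2 from the methods' t-test, with sums of 766 to 774 in visceral and 928 to 944 in parietal mesothelium. No marker can be said to be at 0, because these log2 signals have no true zero. The part of these cells in the results below was not tested, and in tissue RNA fewer cells of a type and less RNA per cell cannot be told apart.

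The mesothelia differed in 11 of the 38 guidance genes. Higher in visceral mesothelium were the receptors Epha1, Epha4 and Neo1 and the ligand Slit3. Higher in parietal mesothelium were the receptors Epha3, Ephb3, Ephb6 and Unc5a and the ligands Efna5, Slit2 and Ntn4. Differences are of log2 signal, visceral minus parietal, and were called by limma at a Benjamini-Hochberg adjusted p under 0.05 over all genes and a fold of at least 1.5. The called genes make up 28.9% of the guidance genes, against 9.6% of all genes. By direction they are 4 of 38 against 5.22% of all genes for visceral, and 7 of 38 against 4.39% for parietal mesothelium. The median size of the difference was 0.30 over the guidance genes and 0.14 over all genes, and the median signed difference was -0.07 against 0.00.

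**Figure D1:**
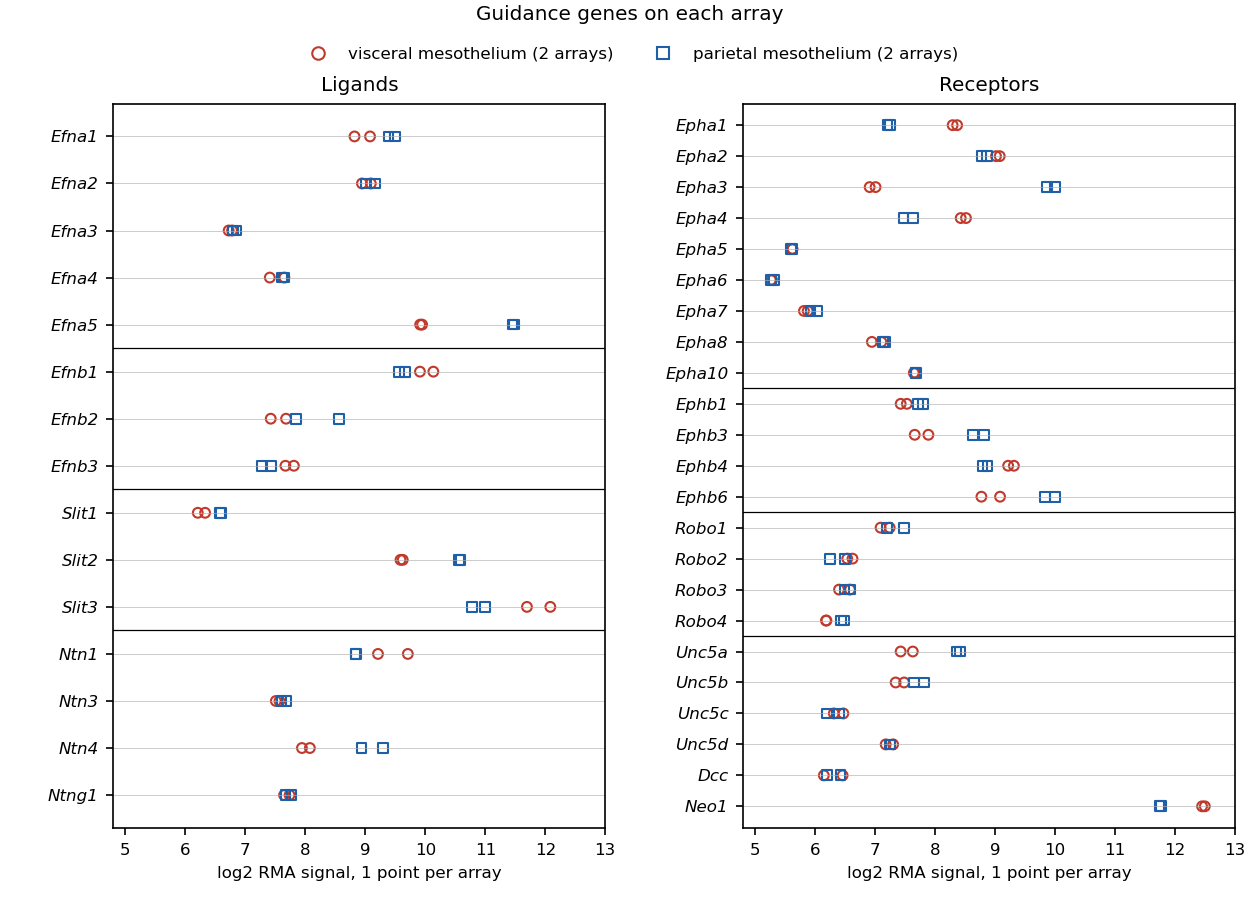
Log2 RMA signal (x axis) of the 38 measured guidance genes (y axis), ligands on the left and receptors on the right, with 1 point per array, red circles for visceral and blue squares for parietal mesothelium. Signals are to be compared along a row only, and Epha3 lies at 9.87 and 10.01 on the parietal and at 6.91 and 7.01 on the visceral arrays.

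The called genes were all among the brighter ones. Of the 38 genes, 18 had a mean signal above the median of all genes and 11 of these were called, or 61.1%, against 13.9% of all genes above the median. Of the 20 dimmer genes none was called by limma, although 5 had an unadjusted p under 0.05 from limma and 3 from the methods' t-test, against 5.28% of all dimmer genes. Of the called genes, Epha3 and Unc5a lay above the median on the parietal arrays only and Epha1 and Epha4 on the visceral arrays only. Efnb2, which was not called, also lay above it on the parietal arrays only. Genes that count as bright through 1 tissue had to differ, so the share among brighter genes is a description. The arrays of the tissues did not overlap for 29 of the 38 genes, or 76.3%, against 56.3% of all genes. Replicates were close, with a median gap between the arrays of a tissue of 0.12 in visceral and 0.09 in parietal mesothelium. Gaps over 0.3 were found for 4 genes in visceral and 2 genes in parietal mesothelium, the widest of them 0.72, for Efnb2.

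**Figure D2:**
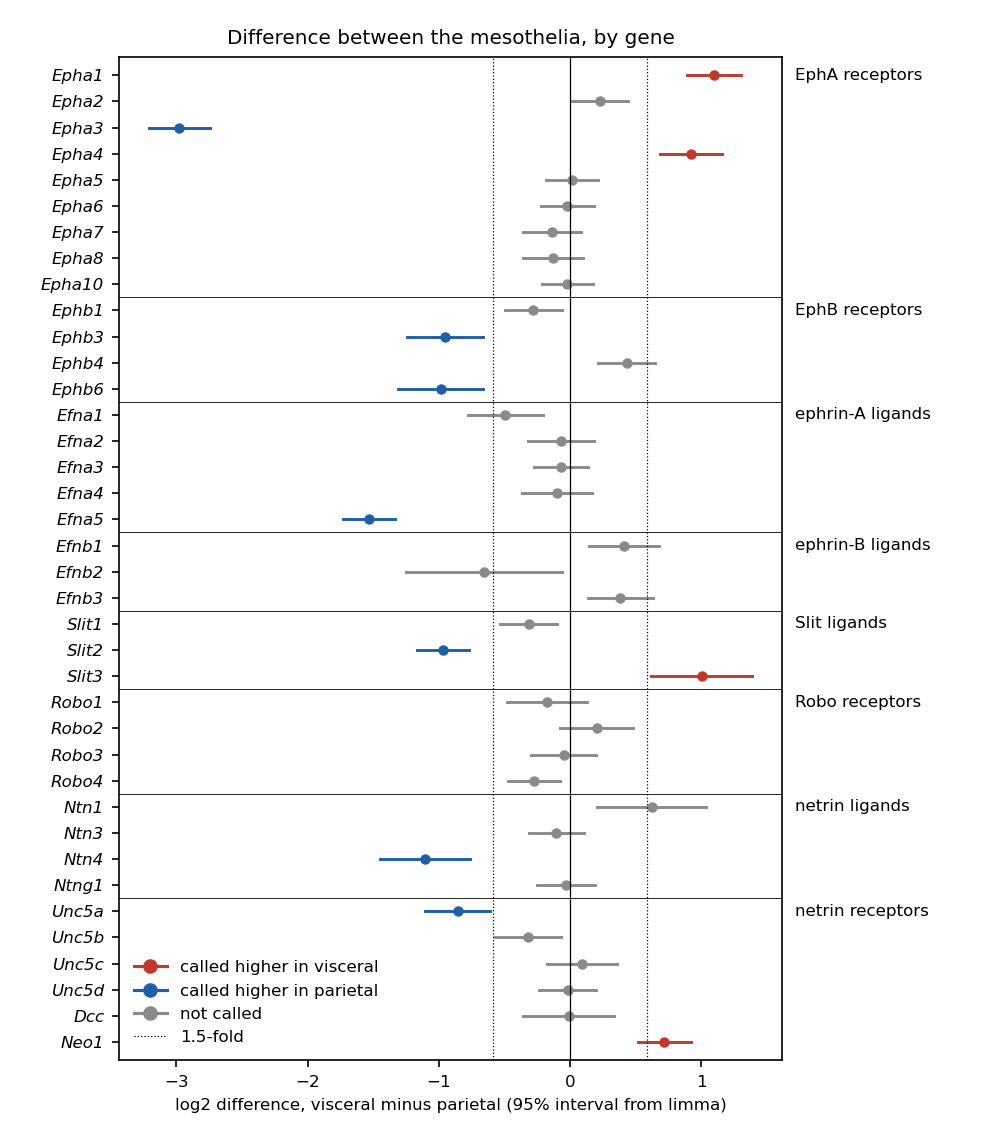
Each guidance gene (y axis, by family) is drawn at its log2 difference (x axis, visceral minus parietal) with the 95% interval from limma, in red if called with visceral mesothelium higher, in blue if called with parietal mesothelium higher, and otherwise in grey; dotted lines mark 1.5-fold. Epha3 at -2.98 and Efna5 at -1.53 lie farthest to the left, and no ephrin-B ligand or Robo receptor was called.

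Among the EphA receptors, 1 was higher in parietal and 2 were higher in visceral mesothelium. Epha3, a receptor that binds ephrin-A5 with high affinity, had log2 signals of 10.01 and 9.87 on the parietal and of 6.91 and 7.01 on the visceral arrays. The groups lay far apart, and Epha3 was 7.88-fold higher in parietal mesothelium (difference -2.98, standard error 0.09, adjusted p = 6.84e-05 from limma), which put it 78th of all genes by parietal excess. Epha1, the founding member of the family and a receptor of epithelia, went the other way, at 8.30 and 8.37 on the visceral and 7.25 and 7.21 on the parietal arrays. This was a 2.14-fold excess in visceral mesothelium (difference 1.10, standard error 0.08, adjusted p = 0.000885 from limma). Epha4, which binds ephrins of both classes, was also higher on both visceral arrays, at 8.52 and 8.43 against 7.63 and 7.48, or 1.89-fold (difference 0.92, standard error 0.10, adjusted p = 0.00273 from limma). Epha2, the EphA receptor most often studied in epithelial cells, did not overlap between the tissues but differed by 0.23 (95% interval 0.01 to 0.44) and did not pass. The other EphA receptors, Epha5, Epha6, Epha7, Epha8 and Epha10, lay below the median signal of all genes and differed by -0.14 to 0.02. A second, dimmer probe of Epha10 differed by -0.10 and did not pass either.

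Of the ephrin-A ligands, only Efna5 was called. Its signals were 11.45 and 11.48 on the parietal and 9.91 and 9.95 on the visceral arrays. The replicates were nearly equal, and Efna5, the ephrin-A that also binds Ephb2, was 2.90-fold higher in parietal mesothelium (difference -1.53, standard error 0.08, adjusted p = 0.000267 from limma). Efna1, first found as a gene that endothelial cells induce on inflammation, had 9.39 and 9.50 on the parietal against 8.82 and 9.08 on the visceral arrays. Its difference of -0.49 had an adjusted p of 0.0434 from limma but stayed under the fold required, reaching it only without visceral replicate 2, where it was -0.62. Efna3 and Efna4, which lie close to Efna1 on the chromosome, differed by -0.07 and -0.10, and Efna2 by -0.07, and none of them passed. The 4 sequences upstream of Efna5 and of the called EphA receptors are given here because this ligand and all 3 receptors were called, Epha3 in the same direction as Efna5 and Epha1 and Epha4 in the opposite one. They are the promoter bases of RefSeq on GRCm38.p6 that lie before the annotated start of the gene. They are written along the strand of the gene, all on the minus strand. Capitals mark the GC box GGGCGG or its reverse complement CCGCCC, read by the factor Sp1. The stretches are chr17:62881318-62881567 for Efna5, chr16:63864176-63864425 for Epha3, chr6:42373315-42373518 for Epha1 and chr1:77515108-77515338 for Epha4.
Efna5: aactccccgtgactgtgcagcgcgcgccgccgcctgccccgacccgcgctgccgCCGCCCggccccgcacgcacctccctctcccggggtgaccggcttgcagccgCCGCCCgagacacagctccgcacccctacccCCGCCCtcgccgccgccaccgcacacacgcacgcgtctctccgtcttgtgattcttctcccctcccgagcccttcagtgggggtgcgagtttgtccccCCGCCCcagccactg
Epha3: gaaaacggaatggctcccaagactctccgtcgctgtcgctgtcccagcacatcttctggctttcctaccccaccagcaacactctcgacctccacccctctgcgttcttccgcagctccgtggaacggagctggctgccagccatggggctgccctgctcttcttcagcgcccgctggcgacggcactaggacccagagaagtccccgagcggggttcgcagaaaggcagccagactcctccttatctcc
Epha1: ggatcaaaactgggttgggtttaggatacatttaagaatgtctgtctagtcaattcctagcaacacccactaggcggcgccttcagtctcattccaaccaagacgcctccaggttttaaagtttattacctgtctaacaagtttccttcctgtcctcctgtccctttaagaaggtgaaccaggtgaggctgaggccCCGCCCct
Epha4: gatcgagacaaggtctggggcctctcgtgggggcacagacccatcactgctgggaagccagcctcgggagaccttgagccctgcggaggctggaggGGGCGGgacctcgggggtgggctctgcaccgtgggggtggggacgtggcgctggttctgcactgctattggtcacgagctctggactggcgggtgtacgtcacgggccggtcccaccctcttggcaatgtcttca

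Upstream of Efna5 the GC box occurred 4 times, upstream of Epha1 and of Epha4 once each and upstream of Epha3 not at all. The stretch of Efna5 held 32 CG dinucleotides in 250 bases, that of Epha3 16 in 250, that of Epha4 14 in 231 and that of Epha1 4 in 204. The ligand and the receptor that were higher together in parietal mesothelium thus had upstream stretches of unlike composition, with G and C making up 74.8% for Efna5 and 62.8% for Epha3. These are counts of letters and say nothing of factors bound there.

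The EphB receptors that were called were higher in parietal mesothelium. Ephb3, a receptor known for the placing of epithelial cells in the intestinal crypt, lay at 8.82 and 8.64 on the parietal and 7.89 and 7.66 on the visceral arrays, a 1.93-fold excess (difference -0.95, standard error 0.12, adjusted p = 0.00497 from limma). Ephb6, which lacks kinase activity, lay at 9.83 and 10.00 on the parietal and 8.78 and 9.09 on the visceral arrays, or 1.98-fold higher (difference -0.99, standard error 0.13, adjusted p = 0.00646 from limma). In each case both parietal arrays were above both visceral arrays. Ephb4, the receptor of venous endothelium, had the opposite sign, with 9.32 and 9.22 on the visceral and 8.88 and 8.80 on the parietal arrays. Its difference of 0.43 had an adjusted p of 0.0271 from limma but amounted to 1.35-fold and was not called. Ephb1 differed by -0.28 (95% interval -0.50 to -0.06), and its second probe by -0.26, without passing.

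No ephrin-B ligand was called by limma, although all 3 had an unadjusted p under 0.05 from limma (0 from the methods' t-test). Efnb1, a ligand that takes part in the formation of tissue boundaries, had 10.13 and 9.91 on the visceral against 9.66 and 9.56 on the parietal arrays, a difference of 0.41 with an adjusted p of 0.0624 from limma. Efnb3 differed by 0.38 (adjusted p = 0.0599 from limma). Both lay higher on every visceral than on every parietal array. Efnb2, the ligand of Ephb4 in arterial endothelium, had 8.57 and 7.85 on the parietal and 7.68 and 7.42 on the visceral arrays. The parietal arrays were wider apart than the tissues' nearest arrays, and the difference of -0.66 (95% interval -1.25 to -0.06) missed the threshold, with an adjusted p of 0.149 from limma. Without parietal replicate 2 it was -1.02 and passed (adjusted p = 0.00464 from limma), and without parietal replicate 1 it was -0.30. The parietal arrays also differed in adipocyte markers, of which 9 were measured, with a summed linear signal of 2902 in parietal replicate 1 and 2117 in parietal replicate 2 against 1549 to 1721 in visceral mesothelium. Only Slc2a4 of these was called, at 8.58 and 9.23 on the parietal against 7.32 and 7.34 on the visceral arrays. Unlike the sum, Slc2a4 was higher in parietal replicate 2 than in parietal replicate 1, and it adds to both parietal sums. The part of adipocytes in the Efnb2 values was not tested.

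The Slit ligands split between the mesothelia. Slit3, a secreted ligand needed in the mouse for a normal diaphragm, lay at 11.69 and 12.08 on the visceral and at 10.78 and 11.00 on the parietal arrays. It was 2.00-fold higher in visceral mesothelium (difference 1.002, standard error 0.15, adjusted p = 0.0111 from limma). Slit2, its close relative, was higher on the parietal arrays, at 10.56 and 10.59 against 9.62 and 9.59 on the visceral ones. The difference of -0.97 had a standard error of 0.08 and an adjusted p of 0.00121 from limma and was a 1.96-fold excess in parietal mesothelium. The groups did not overlap for either ligand, and leaving out each array in turn gave 0.81 to 1.20 for Slit3 and -0.99 to -0.95 for Slit2. Slit1, the Slit best known from the nervous system, lay below the median signal and differed by -0.32 (adjusted p = 0.0722 from limma).

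None of the Robo receptors was called by limma, and all 4 lay below the median signal of all genes. Robo4 alone had an unadjusted p under 0.05 from limma, and 1 of the 4 had one from the methods' t-test. Robo1, a main receptor of the Slits, had 7.09 and 7.25 on the visceral and 7.48 and 7.21 on the parietal arrays, which overlapped. Its difference was -0.18, with a 95% interval of -0.48 to 0.13. Robo2, the other main Slit receptor, differed by 0.20 (interval -0.08 to 0.48) and Robo3, a divergent member that in mammals does not bind Slits, by -0.05 (interval -0.30 to 0.20). These intervals do not reach 1.5-fold in either direction. Robo4, the endothelial member and a neighbour of Robo3 in the genome, lay at 6.49 and 6.44 on the parietal and at 6.18 and 6.19 on the visceral arrays. Its difference of -0.28 (interval -0.48 to -0.08) missed the threshold, with an adjusted p of 0.0843 from limma. Of the 12 endothelial markers measured beside it, 2 were called, both higher in parietal mesothelium. Their sums over all 12 were 3732 to 3992 in visceral and 4866 to 5106 in parietal mesothelium. The median difference over the 12 was 0.005, and 9 of them did not lie above the median signal of all genes. The share of endothelial RNA in the Robo4 value was not tested.

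Among the netrins, Ntn4 was higher in parietal mesothelium. Ntn4, a netrin of basement membranes that binds laminin, lay at 8.93 and 9.29 on the parietal and 7.94 and 8.08 on the visceral arrays. The groups were clearly apart, a 2.15-fold excess (difference -1.10, standard error 0.14, adjusted p = 0.00524 from limma). Ntn1, the classical attractant of Dcc, leaned towards visceral mesothelium, with 9.21 and 9.71 against 8.84 and 8.84. The visceral arrays lay 0.50 apart and the difference of 0.62 (95% interval 0.21 to 1.04) missed the threshold (adjusted p = 0.0673 from limma). The gene passed without visceral replicate 1, at 0.87 (adjusted p = 0.0116 from limma), and was 0.37 without visceral replicate 2. Ntn3 and Ntng1, the latter a membrane-anchored netrin, differed by -0.10 and -0.03. A second, dimmer probe of Ntng1 differed by -0.62, with an adjusted p of 0.0734 from limma over all probes, so the probes of this gene disagree in size.

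Of the netrin receptors, Neo1 and Unc5a were called in opposite directions. Neo1, neogenin, the relative of Dcc that also binds the repulsive guidance molecules, had 12.50 and 12.45 on the visceral and 11.77 and 11.74 on the parietal arrays. The excess in visceral mesothelium was 1.65-fold (difference 0.72, standard error 0.08, adjusted p = 0.0036 from limma). Unc5a, a receptor that turns the response to netrin into repulsion, had 8.36 and 8.41 on the parietal and 7.43 and 7.63 on the visceral arrays, or 1.81-fold more in parietal mesothelium (difference -0.86, standard error 0.10, adjusted p = 0.00417 from limma). Neither gene's groups overlapped. Unc5b, the Unc5 receptor of endothelium, differed by -0.32 (interval -0.57 to -0.07) and Unc5c, Unc5d and Dcc by 0.09, -0.02 and -0.01, none of them passing. The arrays of Dcc ran from 6.15 to 6.46 in visceral and from 6.20 to 6.43 in parietal mesothelium and overlapped.

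Ligands and receptors were then set side by side in 78 pairs, of 82 known to bind by class, whose members were both measured. The 78 include Robo4 with Unc5b, which are both receptors and were not called. Both members were called in 3 of these 78 pairs, all of them pairs of Efna5. Efna5 and Epha3 were both higher in parietal mesothelium, at -1.53 and -2.98. Efna5 with Epha1 (1.10) and with Epha4 (0.92) stood in opposite directions. In 10 pairs only the ligand and in 24 only the receptor was called, and in 41 neither. Of the 6 Slit and Robo pairs, 4 had a called ligand, Slit2 or Slit3, and none a called receptor. Of the 12 pairs of Ntn1 and Ntn3 with their receptors, 4 had a called receptor, Neo1 or Unc5a, and none a called ligand. The EphB pairs had called receptors, Ephb3 and Ephb6, in 6 of 12 and no called ligand. Ntn4 is in no pair of the list, so the called ligand Ntn4 (-1.10) was not set against Neo1 (0.72) or Unc5a (-0.86), and the counts of netrin pairs are those of Ntn1 and Ntn3 alone. Pairs share members, so these counts are not independent of each other.

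**Figure D3:**
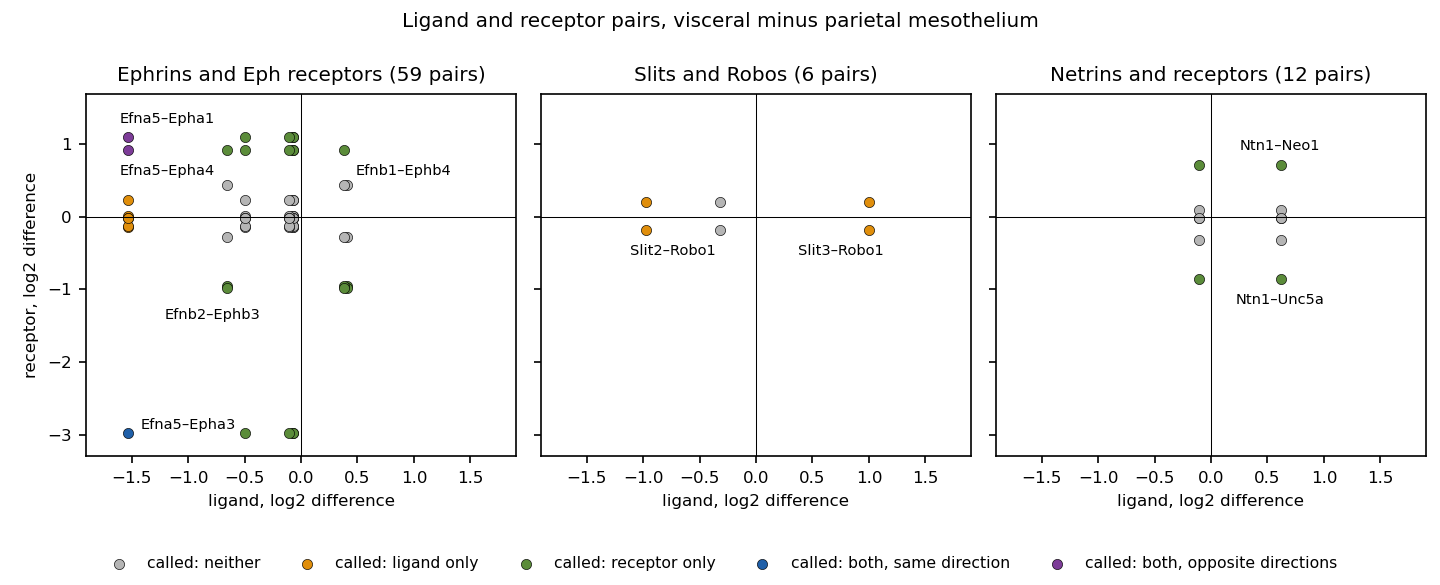
Log2 difference of the ligand (x axis) against that of the receptor (y axis), visceral minus parietal mesothelium, for pairs of ephrins and Eph receptors, Slits and Robos, and netrins and their receptors, with 1 point per pair; the pair of Robo4 and Unc5b, neither of them called, is left out. Efna5 and Epha3 lie at -1.53 and -2.98 in the lower left, while the called Slits lie on either side of 0 with values of -0.18 for Robo1 and 0.20 for Robo2.

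Genes known to act with these receptors were counted in the same way. Of 66 such genes, adaptors, exchange factors, coreceptors and other ligands, 64 were measured. Among these 9 were called, or 14.1% against 9.6% of all genes, with 5 higher in visceral and 4 in parietal mesothelium. Above the median signal lay 45 partners, of which 6 were called, or 13.3%, against 13.9% of all genes above the median. Of the 19 dimmer partners 3 were called, against 5.28% of all dimmer genes. Lrrc4c, also called netrin-G ligand 1, the transmembrane partner of Ntng1, was higher in visceral mesothelium. Its signals were 7.58 and 7.48 on the visceral and 5.14 and 5.18 on the parietal arrays, a ratio of signals of 5.16 (difference 2.37, standard error 0.08, adjusted p = 9.91e-05 from limma). Lrrc4c is dim, with all 4 arrays under the median signal of all genes and no measure of background used here, so the parietal signals are not shown to lie above background. It was the only called gene among 22 measured netrin partners. The brighter probe of Ntng1 itself differed by -0.03 and the dimmer one by -0.62, neither passing. Rgma and Rgmb, the repulsive guidance molecules that bind Neo1, differed by 0.10 and 0.08 and Flrt2, a ligand of Unc5 receptors, by -0.51, none of them called. These 3 genes are named outside the rule for named genes, for the receptors they bind, and were chosen after their values were seen.

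Of 17 partners of Slit and Robo, 2 were called in each direction. Nell2, a secreted ligand of Robo3, was 3.68-fold higher in parietal mesothelium, at 8.41 and 8.70 against 6.53 and 6.82 (difference -1.88, standard error 0.15, adjusted p = 0.000972 from limma). Robo3 itself differed by -0.05. Gpc1, a heparan sulfate proteoglycan that binds Slit, was also higher in parietal mesothelium (-0.91), whereas Sdc3, another heparan sulfate proteoglycan, was higher in visceral mesothelium (1.49), as was Srgap3 (0.62), a protein that binds the inner part of Robo receptors. Srgap3 came to 0.49 without visceral replicate 2 and to 0.54 without parietal replicate 2 and passed in neither case. Of 25 partners of Eph and ephrin, the kinase Fyn (1.38) and the exchange factor Vav3 (0.85) were higher in visceral mesothelium. Vav3 is dim, with all 4 arrays under the median signal of all genes. The Rac regulators Chn2 (-1.81) and Tiam1 (-0.74) were higher in parietal mesothelium. Chn2 lay at 10.04 and 9.30 on the parietal and 8.16 and 7.56 on the visceral arrays, and without visceral replicate 2 its adjusted p was 0.0569 from limma. Of the 4 fits without 1 array, Tiam1 passed only in that without parietal replicate 2. Leukocytes also express Fyn and Vav3, and of 7 B cell markers 3 were higher in visceral mesothelium, with sums of 1149 to 1499 against 581 to 613, beside all 12 macrophage markers. Their part in these values was not tested.

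**Figure D4:**
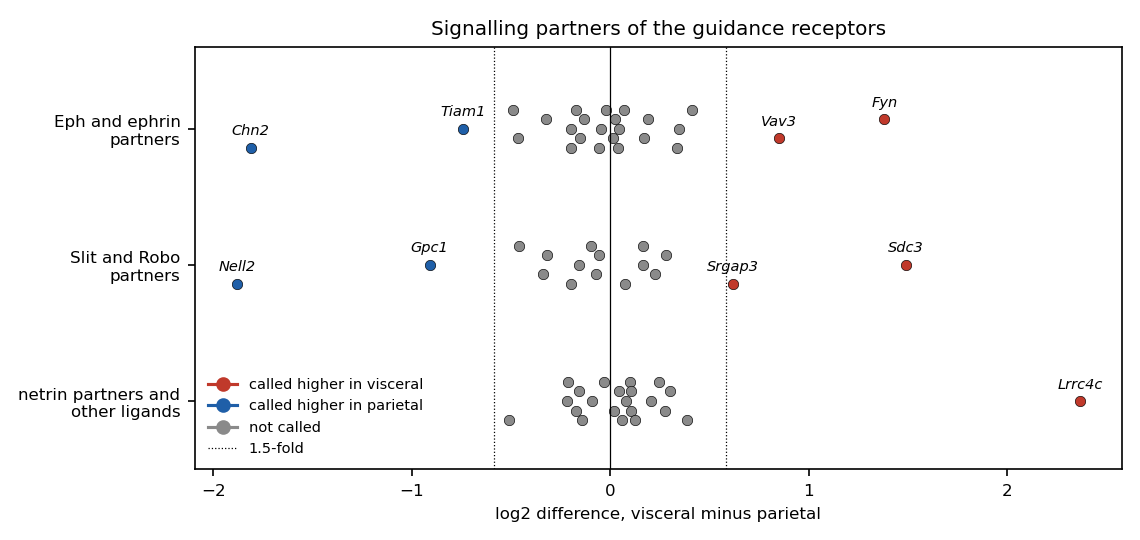
Each of 64 signalling partners, in 3 lists (y axis), is a point at its log2 difference (x axis, visceral minus parietal), in red if called with visceral mesothelium higher, in blue if called with parietal mesothelium higher, and otherwise in grey; points are spread vertically for legibility and dotted lines mark 1.5-fold. Lrrc4c lies at 2.37, and the called genes Nell2 and Chn2 lie at -1.88 and -1.81.

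The promoters of the guidance genes were rich in G and C. RefSeq promoter windows on GRCm38.p6, from 250 bases before to 50 after a start, were found for 33 of the 38 genes, in 38 windows. Their median GC content was 64.8%, and 72.0% in the windows of the 11 called genes, against 52.7% over all 32851 windows. The GC box, searched as GGGCGG on both strands, was found in 28 of the 38 windows, or 73.7%, and in 10 of 11 windows of called genes, against 35.7% of all windows. The pattern GCGNGGGNG, searched on both strands, which WT1 and EGR factors are known to read and which can overlap a GC box, was found in 14 windows, or 36.8%, and in 7 of the called genes, against 12.3% of all windows. The homeodomain core TAATTA was found in 3 windows, or 7.89% against 5.29% of all, and in none of the called genes, and TATAAA in 2, or 5.26% against 13.6%. The windows of the background cover 27025 genes, among them genes not measured here, so these shares are not a comparison with measured genes alone. A match is no sign of binding, and the called genes are also the brighter ones.

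The calls of the 11 genes did not hang on 1 array. Each kept its direction and its call when any of the 4 arrays was left out. Epha3 then ranged from -3.04 to -2.91, Efna5 from -1.55 to -1.52, Neo1 from 0.70 to 0.74 and Ntn4 from -1.28 to -0.93. Efnb2, Efna1 and Ntn1 moved across the threshold with 1 array. A stricter test, against a fold of 1.5 instead of 0 (treat in limma), kept 4 of the 11 (3.63% of all genes), Epha1 in visceral and Epha3, Efna5 and Slit2 in parietal mesothelium. The other 7 were not shown to exceed 1.5-fold. For reading other counts of calls beside these, the share of all genes called was 9.17% and 8.51% on leaving out the first and second visceral array, 10.5% and 9.71% on leaving out the first and second parietal array, 10.1% with the replicate number as a block, 6.91% at an adjusted p under 0.01, 14.2% with no fold threshold, 14.1% in the fit of genes above the median signal only, and 7.93% by the methods' t-test with no adjustment.

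**Figure D5:**
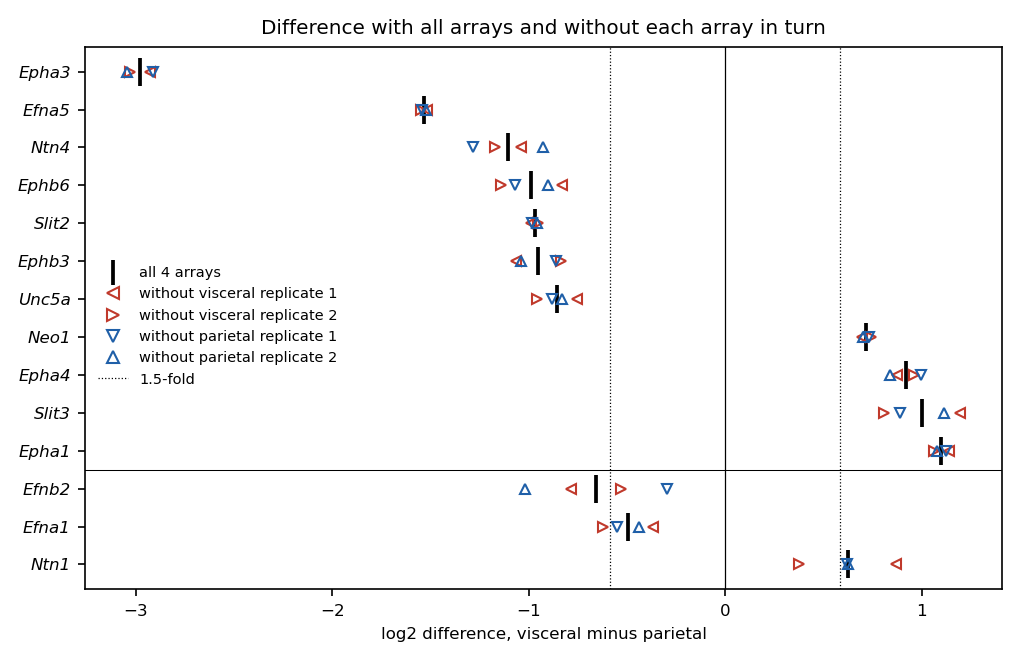
The x axis is the log2 difference (visceral minus parietal) of the 11 called guidance genes and, under the line, of Efnb2, Efna1 and Ntn1 (y axis), with all 4 arrays (black bars) and without each array in turn (triangles); dotted lines mark 1.5-fold. The called genes stay beyond 1.5-fold throughout, and Efnb2 ranges from -1.02 to -0.30.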

How the data were processed

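RNA of visceral and parietal mesothelium was measured on 2 arrays each. The deposited values are log2 signals after RMA normalization by the authors, for which the processing notes of the submitters list Partek 6.6. They were used as they stand. No annotation version is stated by any source read. Of 35556 probes, 21789 carried 1 symbol, 1621 several and 12146 none in a platform annotation. Symbols were updated through RefSeq on GRCm38.p6, where 21698 probes matched, with 0 changes. Differences between tissues came from limma 3.58.1 (R 4.3.3) over 19938 genes, with no block and no filter on low values, and the code was tested on simulated data. In limma the variance of each gene is drawn towards a value shared by all genes. For Epha5 the standard error was 0.079 from limma and 0.011 from the methods' t-test. A small standard error of a gene with close replicates is therefore not its own scatter alone. The members, gene lists, binding pairs and tests were chosen with earlier results of these data known. Every guidance gene could be named, called partners up to 6 in each direction, and the first 3 measured markers of a list. Wt1, Calb2, Slc2a4 and Stmn2 are named outside this rule and were chosen after their values were seen. Alternatives were the methods' t-test, other thresholds, variance priors, normalizations and probe choices, a filter on dim genes, the replicate number as a block, and fits without 1 array, in which the lone array of a tissue is taken to vary like the other tissue's. Eph genes are paralogs, and whether their probes cross-hybridize was not examined. Array batches were not analysed here.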

Additional observations from a re-analysis of the deposited data

How the results depend on the processing

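Of 209 settings of the 11 called guidance genes, 190 kept direction and call, and none reversed. The methods' t-test with adjustment called 0 guidance genes and 0 partners in either direction. It called 0 of all 19938 genes, against 3895 genes at an unadjusted p under 0.05. The study reported probes that passed its own adjusted ANOVA in Partek, and the reason for this contrast was not tested. At the unadjusted threshold and the fold required, the t-test called 4 guidance genes higher in visceral and 7 in parietal mesothelium, and 2 partners higher in parietal mesothelium. Treat against a fold of 1.5 called 1 guidance gene and 3 partners higher in visceral and 3 and 1 higher in parietal mesothelium. An adjusted p under 0.01 left 2 partners higher in parietal mesothelium, no fold threshold gave 8, and genes above the median signal only left 3 partners higher in visceral mesothelium. Leaving out each array gave 4 to 5 and 7 to 8 guidance genes and 4 to 5 and 2 to 4 partners higher in visceral and parietal mesothelium; the lowest, 2, was without visceral replicate 2. Genes near 0 changed sign without passing, namely Epha5 (-0.0031 after quantile normalization), Unc5d (0.0077 as the mean of its probes) and Dcc (0.0072 after cyclic loess). On leaving out an array Epha6 ran from -0.042 to 0.0037, Efna2 from -0.14 to 0.0040, Efna4 from -0.22 to 0.019, Robo3 from -0.14 to 0.043, Ntng1 from -0.079 to 0.024, Unc5c from -0.0014 to 0.19, Unc5d from -0.079 to 0.046 and Dcc from -0.17 to 0.15. The cause of these changes was not tested. Arrays of the same number deviated together (r = 0.27 over probes), but the labels do not say that a number marks a shared animal, so the samples share only a number. With the replicate block 5 and 8 guidance genes and 5 and 4 partners were called higher in visceral and parietal mesothelium, the added ones being Ntn1 (adjusted p = 0.0412 from limma) and Efnb2 (0.0316). Signals near the array's background limit what can be seen of the dimmer guidance genes.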
